A study of Rattus norvegicus with 3 samples.

Results

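The analysis covered 10 genes for matrix proteases and their inhibitors, 10 of the 20896 gene names in the 3 tables of the series. They were chosen by name: 8 proteases, Mmp2, Mmp3, Mmp8, Mmp9, Mmp13, Mmp14, Adamts4 and Adamts5, and 2 inhibitors, Timp1 and Timp3. All 10 were listed in each of the 3 libraries. For every gene the question was which cell cluster supplied its transcripts in each library, and how its level stood in that cluster.

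Condylar cartilage and subchondral bone of SD rats were sequenced as single cells in 3 libraries, each pooled from 8 rats and 16 condyles. The sham library came from rats given Vector AAV without unilateral anterior crossbite (UAC), a bite change that loads the temporomandibular joint. The UAC library came from rats with 8 weeks of UAC and Vector AAV. The UAC + miR-330 library came from rats with 8 weeks of UAC and an AAV carrying miR-330.

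Fibrillar collagen is opened by collagenases, and the loosened chains are then degraded by gelatinases. Aggrecan, the large proteoglycan of cartilage, is cleaved by aggrecanases of the ADAMTS family. TIMPs block the active site of these enzymes, and most of the enzymes are made as inactive precursors, so a transcript level is not an activity.

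Transcripts were read as unique molecular identifiers (UMIs), recovered from the mean counts of every cluster, and given as counts per 1000000 UMIs (CPM) of the cluster or library. The libraries held 77668015 UMIs in 15 clusters (sham), 92629658 in 18 (UAC) and 97255383 in 19 (UAC + miR-330). Each condition had 1 library, so no replicate check and no test could be made, and the 95% intervals given in brackets cover counting error only. The 2 comparisons set UAC beside sham and the miR-330 library beside UAC, so they share the UAC library, and their values are given side by side and not counted together. A gene was called changed at 1.5-fold or more where the pair of libraries held at least 50 UMIs of it.

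Clusters were named from marker genes, which left out all 10 genes of the set. Exactly 1 cluster per library was chondrocyte-like: cluster 12 in sham, 16 in UAC and 17 in UAC + miR-330, with 14, 15 and 16 of 18 chondrocyte markers enriched. The next class there was osteogenic, with 6, 7 and 6 markers enriched, so the cluster also carried bone-forming transcripts. Neutrophil-like clusters were 8 and 10 in sham, 7, 8 and 12 in UAC, and 6, 9 and 15 in UAC + miR-330. Cluster 15 in sham, 9 in UAC and 10 in UAC + miR-330 had 10, 8 and 9 macrophage markers enriched but met no name under the rule, and is called the macrophage-marker cluster below. No cluster was osteoclast-like in any library.

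Supply fell into 2 groups of genes that were the same in every library. The chondrocyte-like cluster held most UMIs of 8 members, Mmp2, Mmp3, Mmp13, Mmp14, Adamts4, Adamts5, Timp1 and Timp3. The neutrophil-like clusters held most UMIs of the other 2, Mmp8 and Mmp9. The clusters were made from the same counts, and the genes used to make them may include these members. A concentration in a cluster is therefore a description and not a finding of its own.

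**Figure D1:**
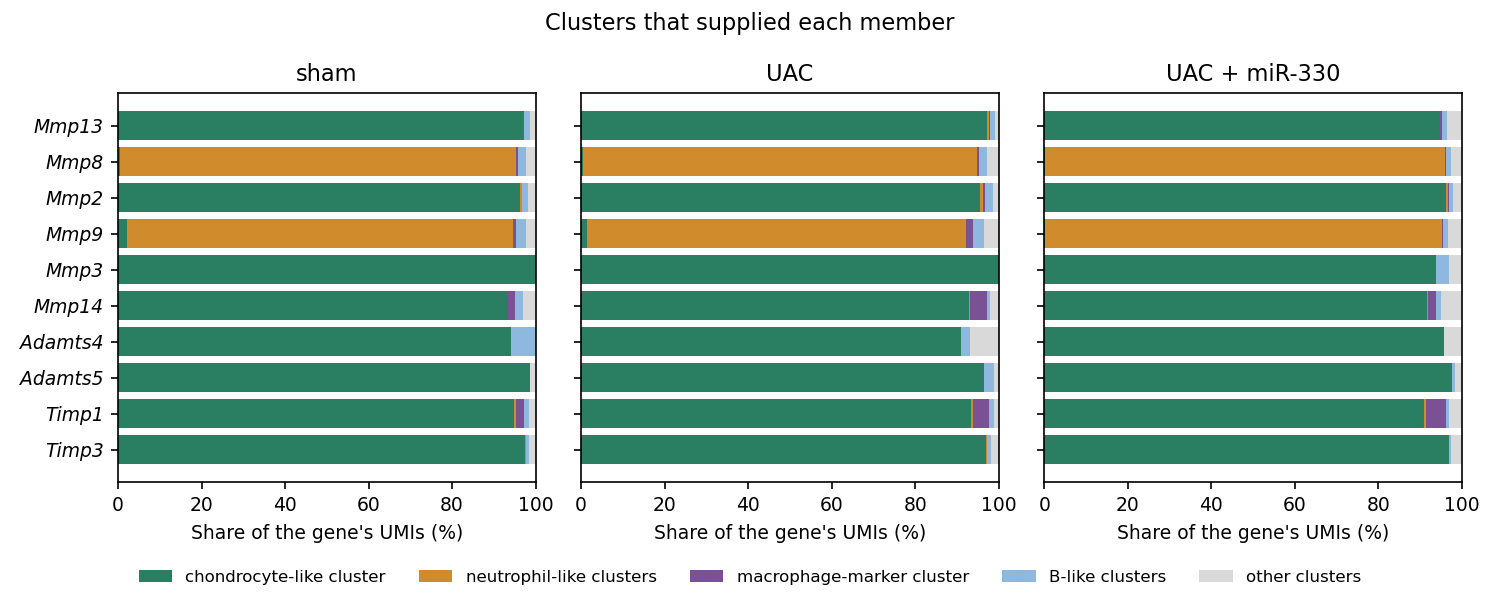
Share of each member's UMIs (%, horizontal axis) held by each class of clusters, with 1 panel per library. Bars add up to 100% for each gene.

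The chondrocyte-like cluster was a small part of each library, with 11.6%, 6.46% and 6.05% of all UMIs; from here values of all 3 libraries are given in the order sham, UAC, UAC + miR-330. It nevertheless held 96.3%, 95.6% and 96.3% of Mmp2, 96.9%, 97.3% and 94.7% of Mmp13, and 93.3%, 93.0% and 91.7% of Mmp14. Timp3 had 97.5%, 97.0% and 96.9% of its UMIs there, and Timp1 94.9%, 93.4% and 91.1%. These genes thus had a single main cluster, for the inhibitors as for the proteases. That cluster also carried bone-forming transcripts, and which of its cells supplied each gene was not tested. For the 2 aggrecanases the same cluster held 94.1%, 90.9% and 95.7% of Adamts4 and 98.7%, 96.4% and 97.6% of Adamts5. Mmp3 was so rare that its share rested on 4, 24 and 32 UMIs in all, of which 4, 24 and 30 were in the chondrocyte-like cluster.

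Outside that cluster the same genes were low. B-like clusters, taken as a reference, held Mmp13 at 0.647, 0.989 and 0.687 CPM, against 140, 411 and 251 in the chondrocyte-like cluster, a fold of 217, 416 and 366. Timp1 had the macrophage-marker cluster as its second source at 2.08%, 3.79% and 4.89% of its UMIs. Mmp14 had 1.82%, 4.13% and 1.91% of its UMIs in the macrophage-marker cluster, its second source in UAC only. The second source of Mmp14 was the unnamed cluster 13 in sham with 2.12% and the erythroid-like cluster 11 in UAC + miR-330 with 2.86%. By UMI count Timp1 was therefore the only member with the macrophage-marker cluster as second source in every library. For Mmp14 that order rested on few UMIs, 14 against 12 in sham and 21 against 14 in UAC + miR-330.

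Among the collagenases, Mmp13 (collagenase 3, which cleaves type II collagen) was the gene of the chondrocyte-like cluster. In that cluster Mmp13 stood at 140 (133 to 148) CPM in sham, 411 (395 to 428) in UAC and 251 (238 to 264) in UAC + miR-330. It was thus highest in UAC, and the miR-330 library lay between the other 2. The log2 ratio was 1.55 (1.45 to 1.65) for UAC against sham and -0.71 (-0.81 to -0.62) for UAC + miR-330 against UAC. Over whole libraries Mmp13 stood at 16.8, 27.3 and 16.1 CPM, so the sham and UAC + miR-330 libraries were alike there. The whole-library log2 ratios were 0.70 and -0.77. The chondrocyte-like share of the library was lower in UAC than in sham (log2 ratio -0.85), which is why the rise of Mmp13 was smaller over the whole library than inside the cluster. With the deposited mean counts in place of CPM, the Mmp13 ratios for UAC + miR-330 against UAC became -0.48 in the cluster and -0.53 over the whole library, both short of 1.5-fold.

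Mmp8 (neutrophil collagenase, stored in granules) was the most counted protease of the set, with 38580, 73312 and 60116 UMIs. Over whole libraries it stood at 497, 791 and 618 CPM, highest in UAC. Neutrophil-like clusters held 94.8%, 94.3% and 95.8% of these UMIs, and in them Mmp8 stood at 4689 (4641 to 4737), 6060 (6015 to 6105) and 5575 (5530 to 5621) CPM. The log2 ratio in these clusters was 0.37 for UAC against sham and -0.12 for UAC + miR-330 against UAC, under 1.5-fold in both, and the second ratio changed sign to 0.12 with the deposited mean counts. The whole-library rise in UAC, log2 0.67, was thus larger than the rise inside the clusters that supplied Mmp8. Whether more cells or more RNA per cell lay behind a whole-library value cannot be told apart here, for Mmp8 as for every other gene.

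Of the gelatinases, which degrade denatured collagen, Mmp2 (gelatinase A) belonged to the chondrocyte-like cluster. There Mmp2 stood at 512 (497 to 527), 425 (408 to 442) and 349 (334 to 365) CPM, falling from sham to UAC to UAC + miR-330. For Mmp2 the log2 ratios were -0.27 (-0.34 to -0.20) and -0.28 (-0.37 to -0.20), under 1.5-fold in each comparison. Over whole libraries Mmp2 stood at 61.7, 28.7 and 21.9 CPM, a log2 ratio of -1.10 for UAC against sham. Most of the whole-library fall of Mmp2 in UAC was therefore the smaller chondrocyte-like share, and only a lesser part was a lower level in the cluster.

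Mmp9 (gelatinase B) belonged to the neutrophil-like clusters, which held 92.4%, 90.8% and 95.04% of its 4840, 8317 and 8173 UMIs. In these clusters Mmp9 stood at 573 (557 to 591), 661 (647 to 676) and 752 (735 to 769) CPM, rising in small steps. The log2 ratios were 0.21 (0.15 to 0.26) and 0.19 (0.14 to 0.23), but the median of all genes in these clusters was 0.27 for UAC + miR-330 against UAC, so relative to it Mmp9 was at -0.08. Over whole libraries Mmp9 stood at 62.3, 89.8 and 84.0 CPM. The step from UAC to UAC + miR-330 was log2 -0.10 there, and 0.14 with the deposited mean counts, which add the same constant for every gene, so no direction is read from it.

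The neutrophil-like clusters did not carry Mmp8 and Mmp9 in equal measure. In each library the cluster with the highest Mmp8 also had the highest Mmp9: cluster 8 in sham (8574 and 923 CPM), cluster 7 in UAC (9802 and 1306) and cluster 15 in UAC + miR-330 (9975 and 1468). Mmp8 and Mmp9 were themselves among the 10 leading genes of the last 2 clusters. The clusters led by Ngp and Lcn2, granule genes of less mature neutrophils, had far less Mmp8: 2195 CPM in sham cluster 10, 1984 in UAC cluster 12 and 3183 in UAC + miR-330 cluster 9. Mmp9 there was 349, 186 and 537 CPM. Another kind, led by the interferon genes Ifit3 and Ifit1bl, was UAC cluster 8 and UAC + miR-330 cluster 6, with Mmp8 at 7356 and 7259 CPM but Mmp9 at only 398 and 616.

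The number of Mmp8 UMIs per Mmp9 UMI also differed between these clusters. It was 18.5 (17.3 to 19.8) in UAC cluster 8 and 11.8 (11.2 to 12.4) in UAC + miR-330 cluster 6, the interferon-led clusters. It was 7.51 (7.30 to 7.72) in UAC cluster 7 and 6.79 (6.55 to 7.05) in UAC + miR-330 cluster 15, the clusters richest in both proteases. The clusters led by Ngp and Lcn2 had 6.29 (5.97 to 6.62) in sham cluster 10, 10.7 (9.97 to 11.5) in UAC cluster 12 and 5.93 (5.70 to 6.16) in UAC + miR-330 cluster 9. The interferon-led cluster thus had the highest ratio in each of the 2 UAC libraries, but UAC cluster 12 came close to the interferon-led cluster of the miR-330 library. Sham cluster 8, which had Ifit1bl and Ifit3 among its leading genes and was also the sham cluster richest in both proteases, had a ratio of 9.29 (8.94 to 9.66).

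The main supplier of Mmp8 and Mmp9 thus differed between libraries in how much it dominated. Sham cluster 8 held 67.8% of Mmp8 and 58.1% of Mmp9, and UAC cluster 7 held 59.2% and 69.5%. In UAC + miR-330 the supply was spread, with 36.1%, 30.3% and 29.4% of Mmp8 and 39.1%, 37.6% and 18.4% of Mmp9 in clusters 15, 9 and 6. Each library was clustered on its own, so the boundaries of these clusters differ between libraries. In addition, 2 clusters with 4 enriched neutrophil markers each were kept out of the neutrophil-like class by the naming rule: UAC cluster 18, unnamed, with 3.56% of its library, and UAC + miR-330 cluster 18, early granulocyte-like, with 3.58%; sham had none. With them added, the log2 ratios for UAC against sham became 0.01 for Mmp8 and -0.15 for Mmp9, and for UAC + miR-330 against UAC -0.18 and 0.13. For UAC against sham this addition changed the UAC side only, so the 2 sides were no longer made up alike. The small rises of Mmp8 and Mmp9 in UAC thus depended on whether UAC cluster 18 was counted as neutrophil-like.

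**Figure D2:**
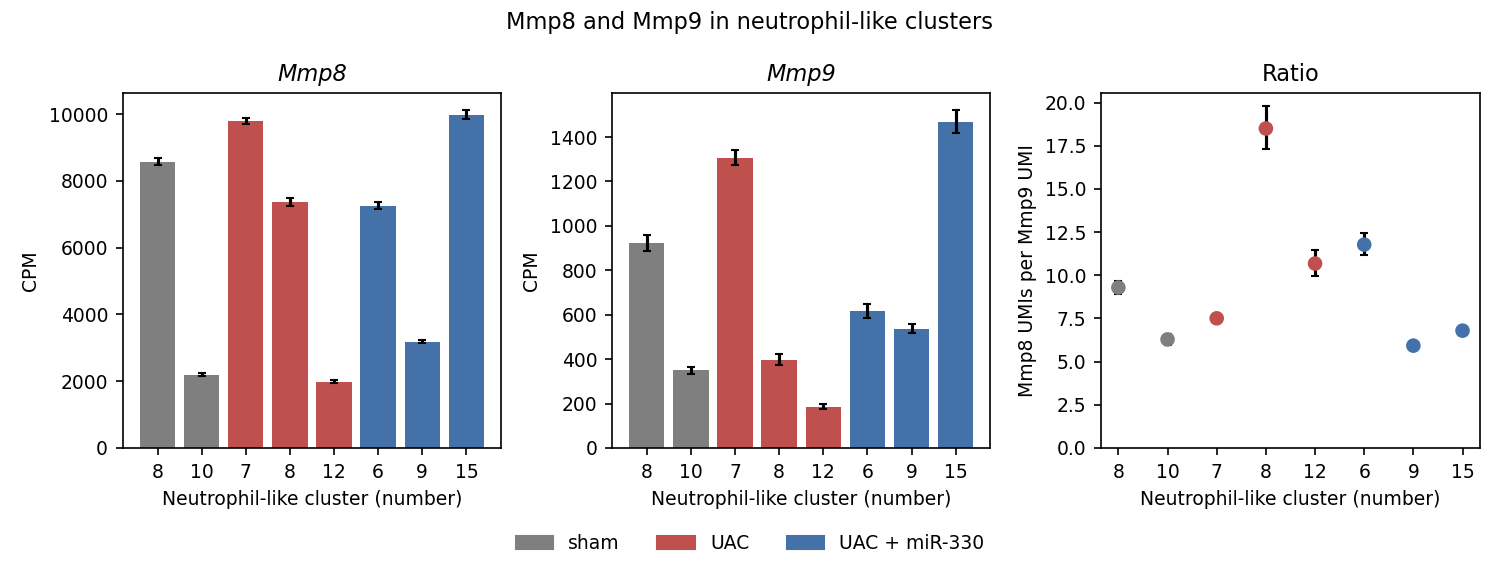
Mmp8 and Mmp9 in CPM, and Mmp8 UMIs per Mmp9 UMI (vertical axes), in each neutrophil-like cluster by cluster number and library. Error bars are exact 95% intervals of counting.

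Mmp8 and Mmp9 were also counted at low levels in the chondrocyte-like cluster. Mmp8 stood there at 21.5, 49.0 and 15.8 CPM, and Mmp9 at 11.5, 19.6 and 2.72. The log2 ratios were 1.19 and 0.76 for UAC against sham, and -1.63 and -2.81 for UAC + miR-330 against UAC. The 2 genes were thus highest in UAC and lowest in UAC + miR-330 in this cluster. Their own clusters did not take this course, but the B-like clusters did. Mmp8 was at 29.6, 40.7 and 27.2 CPM in the B-like clusters, so the chondrocyte-like cluster had 0.728, 1.21 and 0.581 times that level, while Mmp9 exceeded its B-like level of 4.34, 6.80 and 3.90 CPM in sham and UAC only.

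Neutrophil markers were present in the same cluster: 8, 7 and 7 of 10 had at least 10 UMIs, and they summed to 1227, 4329 and 852 CPM. The most abundant was S100a9 in sham and UAC and S100a8 in UAC + miR-330, and Ltf was at 0 in sham and UAC + miR-330. Their sum was highest in UAC and lowest in UAC + miR-330, like Mmp8 and Mmp9, but single markers differed: Retnlg was at 45.5, 36.8 and 6.80 CPM, highest in sham, and Lcn2 at 14.4, 54.3 and 21.2, lowest in sham. Their part in the Mmp8 and Mmp9 values of the cluster was not tested. The ratio of Mmp8 to Mmp9 was 1.87 (1.46 to 2.39), 2.50 (2.01 to 3.13) and 5.81 (3.40 to 10.6) in the chondrocyte-like cluster, against 8.18, 9.16 and 7.41 in the neutrophil-like clusters. In sham and UAC the chondrocyte-like cluster therefore held more Mmp9 per Mmp8 than the neutrophil-like clusters did, and in UAC + miR-330 the interval covered the neutrophil value.

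Osteoclasts are another known source of Mmp9. In the chondrocyte-like cluster the osteoclast markers summed to 193, 277 and 167 CPM, nearly all of it Ctsk, while Calcr, Ocstamp, Dcstamp and Atp6v0d2 were at 0 in every library. Calcr, Ocstamp and Dcstamp had at most 4 UMIs in any whole library, so their zeros in the cluster say little. The name Dcstamp was not listed in sham or UAC + miR-330, so it had no entry there. The chondrocyte markers themselves summed to 62506, 49392 and 64670 CPM, led by Col2a1, and the osteogenic markers to 70739, 61276 and 61571, led by Col1a1. Chondrocyte-like values of the members therefore came from a cluster rich in cartilage and bone collagen transcripts, and the part of osteogenic cells in them was not tested.

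The macrophage-marker cluster held Mmp9 at 9.16 (6.22 to 13.0), 23.2 (19.4 to 27.4) and 2.67 (1.53 to 4.34) CPM and Mmp8 at 52.3, 75.0 and 18.4. Mmp9 and Mmp8 took the same course there as in the chondrocyte-like cluster, highest in UAC and lowest in UAC + miR-330. So did Atp6v0d2 at 2.36, 10.7 and 1.00 CPM and Ctsk at 4.73, 9.54 and 4.34, genes of osteoclasts, and the neutrophil gene Retnlg at 79.8, 83.8 and 5.85. The sums did not: osteoclast markers summed to 183, 110 and 62.5 CPM there and neutrophil markers to 8272, 7934 and 6174, both highest in sham. The part of such cells in the Mmp9 and Mmp8 values was not tested. Timp1 was at 35.2, 23.9 and 23.6 CPM in that cluster, highest in sham.

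Mmp3 (stromelysin 1, which cleaves proteoglycans and activates other MMPs) was the rarest member. In the chondrocyte-like cluster it stood at 0.443 (0.121 to 1.14), 4.01 (2.57 to 5.97) and 5.10 (3.44 to 7.28) CPM. Mmp3 was thus near absent in sham and low in the 2 UAC libraries. The log2 ratio for UAC against sham was 3.04 (1.64 to 5.17) on 28 UMIs, under the minimum for a call, and that for UAC + miR-330 against UAC was 0.34 (-0.48 to 1.18).

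Mmp14 (membrane type 1 MMP, which activates the Mmp2 precursor at the cell surface) stood at 68.4 (63.1 to 74.0), 113 (105 to 122) and 114 (106 to 123) CPM in the chondrocyte-like cluster. It was higher in the 2 UAC libraries than in sham and did not differ between them. For Mmp14 the log2 ratios were 0.72 (0.57 to 0.88) and 0.01 (-0.14 to 0.17). Over whole libraries Mmp14 stood at 8.51, 7.85 and 7.54 CPM, nearly level, with a log2 ratio of -0.12 for UAC against sham that turned to 0.08 with the deposited mean counts. Mmp14 was thus called higher in the cluster in UAC, while its target Mmp2 was not called.

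The aggrecanases Adamts4 and Adamts5, which cleave aggrecan between its globular domains, were both rare. Adamts4 stood at 1.77 (1.01 to 2.88), 6.69 (4.78 to 9.11) and 3.74 (2.34 to 5.66) CPM in the chondrocyte-like cluster, from 16, 40 and 22 UMIs. Adamts5 stood at 8.43 (6.64 to 10.5), 13.4 (10.6 to 16.6) and 20.9 (17.4 to 24.9), from 76, 80 and 123 UMIs. Adamts4 was highest in UAC, whereas Adamts5 rose from sham to UAC and again to UAC + miR-330. For Adamts4 the log2 ratios were 1.89 (1.05 to 2.85) and -0.82 (-1.66 to -0.05), and for Adamts5 0.67 (0.20 to 1.14) and 0.64 (0.23 to 1.07). The 2 aggrecanases therefore parted in UAC + miR-330, where Adamts4 was lower and Adamts5 higher than in UAC, on few counts for each. Over whole libraries Adamts4 was at 0.219, 0.475 and 0.236 CPM and Adamts5 at 0.991, 0.896 and 1.30.

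**Figure D3:**
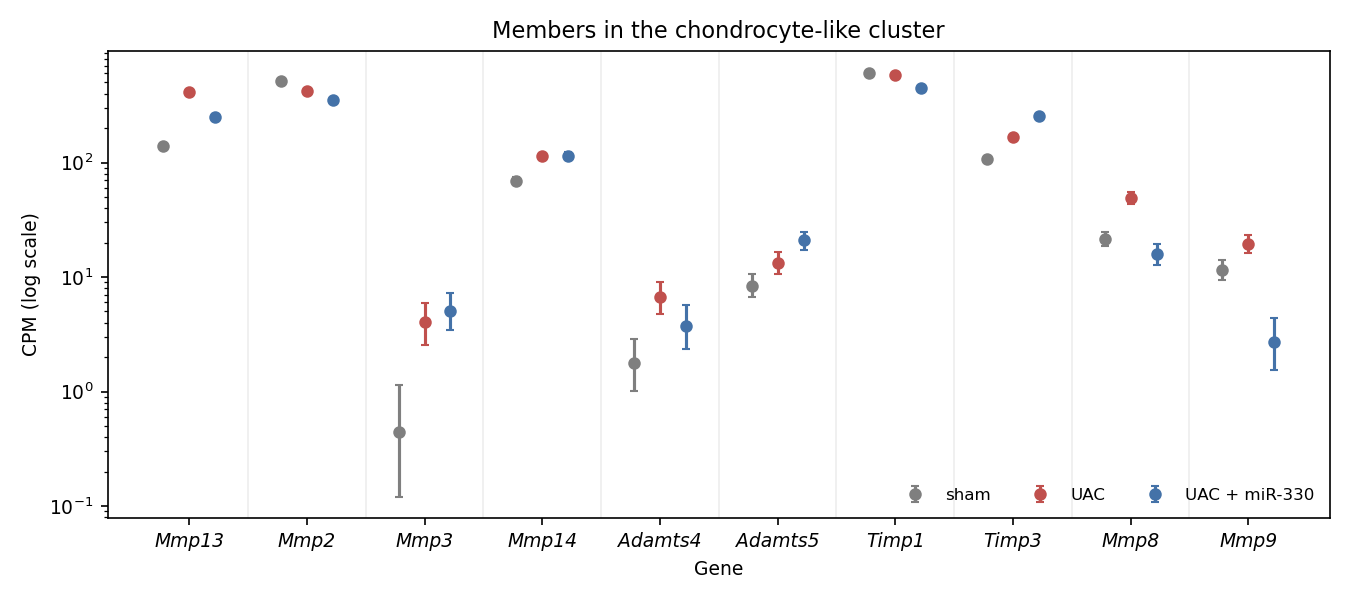
Level of each member in the chondrocyte-like cluster (CPM, log scale) in the 3 libraries. Bars are exact 95% Poisson intervals.

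Of the inhibitors, Timp1 (a secreted inhibitor of most MMPs) stood at 602 (586 to 618), 577 (558 to 596) and 447 (430 to 464) CPM in the chondrocyte-like cluster. It was level in sham and UAC and lower in UAC + miR-330, by less than 1.5-fold. Fibroblast markers of the cluster summed to 7962, 7815 and 6168 CPM, led by Col3a1 at 5091, 4767 and 3624. Of the 11 markers 10 were listed, and 9, 9 and 10 of these had at least 10 UMIs. Col6a3 was not listed in any library. The fibroblast markers took a course like that of Timp1, and their part in the Timp1 and Mmp2 values was not tested. The log2 ratios were -0.06 (-0.12 to 0.00) and -0.37 (-0.44 to -0.30), and the first turned to 0.14 with the deposited mean counts. Over whole libraries Timp1 fell from 73.6 to 39.9 and 29.7 CPM, a log2 ratio of -0.88 for UAC against sham. As for Mmp2, the whole-library fall of Timp1 in UAC went with the smaller chondrocyte-like share and hardly with its level in the cluster.

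Timp3 (bound to the matrix, and the TIMP that also blocks aggrecanases) took another course. In the chondrocyte-like cluster it stood at 108 (101 to 115), 167 (157 to 178) and 253 (240 to 266) CPM, rising at each step. Its log2 ratios were 0.63 (0.50 to 0.76) and 0.60 (0.48 to 0.72), both close to the 1.5-fold limit. Relative to the median of all genes the first was 0.50, short of the limit. With genes of haemoglobin, immunoglobulin, ribosomal protein and mitochondrial origin left out of the total, the second was 0.58, also short. Over whole libraries Timp3 stood at 12.8, 11.1 and 15.8 CPM. In that cluster Timp3 was thus called higher in each comparison and Timp1 in neither, whereas over whole libraries Timp1 was called lower for UAC against sham and Timp3 was not called.

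In the chondrocyte-like cluster 9 of the 10 members passed the minimum for UAC against sham. Of these, 7 were higher (Adamts4, Adamts5, Mmp13, Mmp14, Mmp8, Mmp9 and Timp3), beside 10.5% of all 10052 genes tested, and 0 were lower, beside 1.61%. The median log2 ratio of the 9 was 0.72, and that of all genes 0.14. The 7 included the inhibitor Timp3, and also Mmp8 and Mmp9, which have over 97% of their UMIs elsewhere and stood beside neutrophil markers that went from 1227 to 4329 CPM in the cluster. Relative to the median of all genes, an alternative chosen after seeing the data, Adamts5 and Timp3 fell short of 1.5-fold and 5 members remained higher. For UAC + miR-330 against UAC all 10 passed: 2 were higher (Adamts5 and Timp3), beside 8.48% of all 9798 genes tested, and 4 were lower (Adamts4, Mmp13, Mmp8 and Mmp9), beside 8.01%. The median of the 10 was -0.33 and that of all genes 0.02. Of the 4 lower members, Mmp8 and Mmp9 stood beside neutrophil markers that went from 4329 to 852 CPM in the cluster, and Mmp13 was not called with the deposited mean counts.

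Over whole libraries the picture was different. For UAC against sham 3 of 9 members were higher (Adamts4, Mmp13 and Mmp8), beside 6.97% of all 14235 genes tested, and 2 were lower (Mmp2 and Timp1), beside 6.05%. For UAC + miR-330 against UAC 0 of 10 were higher, beside 11.4% of all 14485 genes tested, and 2 were lower (Adamts4 and Mmp13), beside 3.67%. The member medians were -0.12 and -0.23, with -0.02 and 0.13 for all genes. Only Adamts4 and Mmp13 were thus called in both contexts in both comparisons.

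In the neutrophil-like clusters only Mmp8 and Mmp9 passed. For UAC against sham 0 of the 2 were higher, beside 2.97% of all 7631 genes tested, and 0 lower, beside 11.2%. For UAC + miR-330 against UAC 0 were higher, beside 22.2% of all 7803 genes tested, and 0 lower, beside 2.40%. Pooled over these clusters Mmp8 and Mmp9 were thus not called, but single clusters differed more, as for Mmp9 at 349, 186 and 537 CPM in those led by Ngp and Lcn2.

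The split of all called genes into higher and lower depended on the scaling, so the calls of members were read beside it. Within the chondrocyte-like cluster 86.7% of called genes were higher for UAC against sham, 96.7% with the deposited mean counts and 69.1% relative to the median; for UAC + miR-330 against UAC the share was 51.4%, and 83.3% with the deposited mean counts. Over whole libraries it was 53.5% and 75.6% for the 2 comparisons, 77.3% and 94.3% with the deposited mean counts, and 51.6% relative to the median for the second. In the neutrophil-like clusters it was 21.1% and 90.3%, with 51.5% under the deposited mean counts for the first and 53.8% relative to the median for the second. The deposited mean counts summed to 4541, 5200 and 6123.5 per cluster on average in sham, UAC and UAC + miR-330, a difference that CPM removes. Without that step every log2 ratio shifts by 0.20 and 0.24 in the 2 comparisons, the same for every gene and cluster. Under that shift Mmp9 was called higher over whole libraries for UAC against sham, which made 4 higher there, and Mmp13 was no longer called in UAC + miR-330 against UAC, while Mmp8, Mmp9 and Adamts4 still were in the chondrocyte-like cluster.

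The balance of protease to inhibitor was read as the ratio of their UMIs in the chondrocyte-like cluster, which does not depend on the scaling. Levels of different genes in 3′ counts are comparable only roughly, so the change of a ratio between libraries is the reading. Mmp13 per Timp1 was 0.233 (0.219 to 0.248) in sham, 0.713 (0.677 to 0.751) in UAC and 0.562 (0.527 to 0.600) in UAC + miR-330. Mmp13 per Timp3 was 1.30 (1.20 to 1.42), 2.46 (2.29 to 2.65) and 0.992 (0.922 to 1.07). Both ratios were highest in UAC, but only the ratio to Timp3 came below its sham value in UAC + miR-330.

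Mmp2 per Timp1 was 0.850 (0.817 to 0.885), 0.736 (0.699 to 0.775) and 0.782 (0.738 to 0.829), a narrow range. Mmp2 per Timp3 was 4.75 (4.43 to 5.10), 2.55 (2.36 to 2.74) and 1.38 (1.29 to 1.48). Mmp2 therefore stayed in step with Timp1 and lost ground to Timp3 at each step. Mmp14 per Timp1 rose from 0.114 to 0.196 and 0.256, whereas Mmp14 per Timp3 was 0.635, 0.677 and 0.451. The reading for Mmp14 in UAC + miR-330 thus depended on the inhibitor it was set against.

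For the aggrecanases Timp3 is the inhibitor that matters. Adamts5 per Timp3 was 0.0783 (0.0611 to 0.0989), 0.0802 (0.0630 to 0.101) and 0.0826 (0.0681 to 0.0993), level across the libraries. Adamts4 per Timp3 was 0.0165 (0.00938 to 0.0269), 0.0401 (0.0285 to 0.0550) and 0.0148 (0.00922 to 0.0224). Adamts5 and Timp3 thus rose together, and Adamts4 outpaced Timp3 in UAC only.

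**Figure D4:**
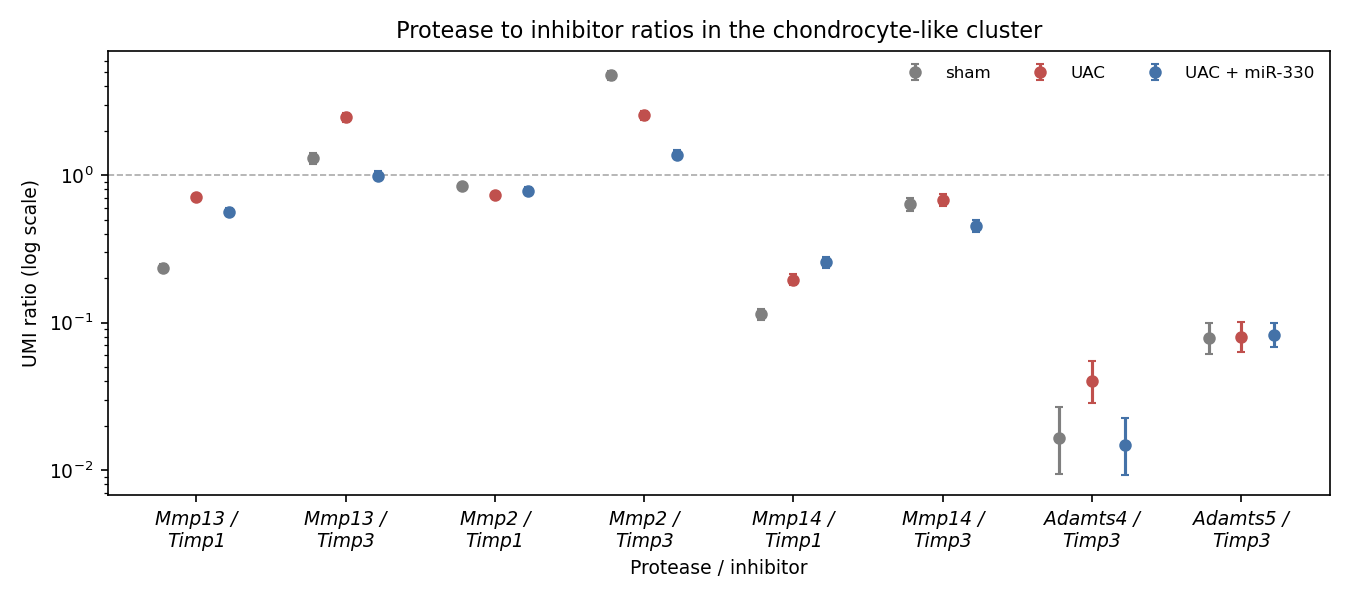
UMIs of each protease per UMI of each inhibitor in the chondrocyte-like cluster (ratio, log scale) in the 3 libraries. Bars are exact 95% binomial intervals, and the dashed line marks a ratio of 1.

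For Mmp8 and Mmp9 the 2 inhibitors of the set came from another cluster. Over whole libraries Mmp8 per Timp1 was 6.75 (6.57 to 6.94), 19.9 (19.2 to 20.5) and 20.8 (20.1 to 21.6), and Mmp9 per Timp1 was 0.847, 2.25 and 2.83. Mmp8 per Timp3 was 38.7, 71.2 and 39.1, and Mmp9 per Timp3 was 4.86, 8.08 and 5.31. Against Timp1 both proteases were higher in the 2 UAC libraries than in sham, whereas against Timp3 they were highest in UAC and near the sham value in UAC + miR-330. These ratios join genes of different clusters, so they depend on the shares of the clusters as well as on levels in them. The chondrocyte-like share was 11.6%, 6.46% and 6.05%, and the neutrophil-like share 10.0%, 12.3% and 10.6%. A balance inside any cell is therefore not read from them. Inside the neutrophil-like clusters Timp1 had only 17, 14 and 11 UMIs and Timp3 1 in each library. Timp2, which was not a member, had 31.7%, 48.6% and 49.7% of its UMIs in the neutrophil-like clusters; Timp2 was thus also counted where Mmp8 and Mmp9 were.

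A wider list of 59 related genes, 57 of them listed, set the members in context. There were 37 of these that passed in the chondrocyte-like cluster. For UAC against sham 4 were higher and 2 lower, beside 10.5% and 1.61% of all genes, at a median of 0.03. For UAC + miR-330 against UAC 7 were higher and 5 lower, beside 8.48% and 8.01% of all genes, at a median of 0.02. The list was mixed: for UAC against sham the median was 0.46 for other MMPs (3 genes) and 0.16 for other ADAMTS proteases (10 genes), beside 0.14 for all genes, and -0.15 for matrix substrates (8 genes). For UAC + miR-330 against UAC it was -0.61 for other MMPs, with 1 higher and 2 lower, 0.62 for other ADAMTS proteases, with 5 higher and 0 lower, and -0.11 for matrix substrates. Adamts18 ran opposite to Adamts4, at 38.0, 22.4 and 41.1 CPM, lowest in UAC, with log2 ratios of -0.76 and 0.87. Adamts17 was likewise called lower for UAC against sham and higher for UAC + miR-330 against UAC. Timp2 was level in the cluster at 358, 383 and 359 CPM, unlike Timp1 and Timp3. Mmp23, with over 95% of its UMIs in the chondrocyte-like cluster, stood at 29.0, 33.1 and 14.8, and like Mmp13 was lower in UAC + miR-330 than in UAC.

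Among the genes that the proteases act on, Col2a1 stood at 27180, 19379 and 24344 CPM in the chondrocyte-like cluster and Acan at 1638, 1471 and 1949. These 2 were lowest in UAC, though for Acan the ratio to sham turned positive with the deposited mean counts, and other substrates went other ways: Vcan was at 8.09, 22.4 and 18.4, highest in UAC, and Col1a2 at 2348, 1927 and 1173, lowest in UAC + miR-330. The log2 ratios were -0.49 and 0.33 for Col2a1 and -0.16 and 0.41 for Acan, all under 1.5-fold. Vcan was also among the leading genes of the macrophage-marker cluster in every library. Over whole libraries Vcan stood at 29.6, 62.8 and 81.0 CPM, highest in UAC + miR-330.

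Likeness over all 52 clusters (Spearman correlation of levels, a description) placed Mmp2, Mmp8 and Mmp9 with genes of their suppliers. Mmp8 was most like Retnlg (0.94), S100a9 (0.92) and Mmp9 (0.91), and Mmp9 most like Mmp8 and Retnlg (0.89). Mmp2 was most like Col3a1 (0.89) and Col1a1 (0.84), genes of fibroblasts and bone-forming cells, and Timp1 most like Htra1 (0.70). Mmp13, Mmp14 and Timp3 had no partner above 0.70, and Adamts4 and Adamts5 were at 0 in 43 clusters each, so their values say little. Mmp2 thus ranked over the clusters like collagen genes, and Mmp8 and Mmp9 like each other. Most of the ranked clusters held little Mmp2, as in the B-like clusters at 2.36, 1.61 and 0.687 CPM. The cells that made Mmp2 are therefore not read from these values.

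Mmp13, Mmp3 and Mmp8 lie in the same group of MMP genes on rat chromosome 8 in the order Mmp13, Mmp12, Mmp1b, Mmp3, Mmp1, Mmp10, Mmp8. Genes of this group thus had different suppliers, the chondrocyte-like cluster for Mmp13 and Mmp3 and the neutrophil-like clusters for Mmp8. Promoter sequences were held for 6 of the 10 members: Mmp3, Mmp8, Mmp13, Adamts4, Timp1 and Timp3. The AP-1 motif TGANTCA, searched on both strands, was present in Mmp3 and Mmp13 only, and in 7.33% of all 33469 promoters. The RUNX motif TGTGGT was present in Mmp13 only (17.3% of all promoters), and TATAAA in Mmp3, Mmp8 and Mmp13 (14.2%). Within the promoter sequences held, Mmp8 therefore differed from the other 2 in having no AP-1 match. Sequence outside them was not searched, a match is a description, and no use of it was tested. The stretches with the AP-1 match in capitals, from -74 to -45 of the Mmp3 start and from -69 to -40 of the Mmp13 start, the latter with TATAAA in capitals as well, read as follows.

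Mmp3: ttaTGAGTCAgtttgcgggtgactctgcaa

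Mmp13: tggTGACTCAtcactattgctcTATAAAat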

How the data were processed

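Single-cell 3′ v3.1 libraries of rat condylar cartilage and subchondral bone, 1 per condition, were available as 3 tables of clusters against genes. The signal is the deposited mean count of each gene in each graph-based cluster; the submitters' notes name Cell Ranger 7.0 and Seurat 4.0.1, and list GRCh38 and mm10 as genome builds; the rat build is not given in the sources used here. The deposited log2 fold changes and p-values compare each cluster with the other clusters of its library and were not used. Each mean was divided by the smallest positive mean of its column to give UMIs, scaled to counts per 1000000 UMIs (CPM); 100% of values came out whole within 0.001. Names on several identifiers were added up. UMIs per cell are unknown, and doublets and free RNA were not treated.

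The 10 members and the marker lists were chosen with earlier results of these data known. Clusters were named after the tables were seen: a marker counted with at least 10 UMIs, 50 CPM and a log2 enrichment of 1 over the other clusters, and a class needed at least 3 such markers, more than any other class, and markers among the leading genes not outnumbered by those of another class. Log2 ratios had 0.5 UMIs added to each count; intervals are exact Poisson (levels) or exact binomial (shares and ratios). A gene passed with at least 50 UMIs in the pair of libraries and was called at 1.5-fold. Samples were grouped by treatment, and UAC was compared with sham and the miR-330 library with UAC; depth is given in the report and sets the counting intervals. Without replicates there is no spread to estimate, so DESeq2 or edgeR were not run. Of the wider list of 59 genes, the 3 most counted of each class, those called in the chondrocyte-like cluster, and Acan as the aggrecanase substrate could be named. Promoter sequences and gene order were from GRCr8. The level of macrophage markers in the chondrocyte-like cluster is not reported here. The code was tested on simulated data. Python 3.11.15, NumPy 2.4.6, pandas 2.3.3, SciPy 1.17.1 and Matplotlib 3.10.9 were used.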

Additional observations from a re-analysis of the deposited data

How the results depend on the processing

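Leave-one-out was not applicable, since each condition had 1 library. No paired analysis was possible because the libraries were pools of different rats. The cause of a moved count was not tested except where the setting itself makes it.

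At 2-fold in place of 1.5-fold, members called over whole libraries for UAC against sham became 1 higher and 1 lower, and for UAC + miR-330 against UAC 0 lower. In the chondrocyte-like cluster 2-fold left 3 higher for UAC against sham, and 0 higher and 2 lower for UAC + miR-330 against UAC; by construction a larger fold calls fewer genes. With the deposited mean counts, which shift every ratio up, the whole-library counts for UAC + miR-330 against UAC became 2 higher and 1 lower, and Mmp9 joined the higher members for UAC against sham, 4 in all. With genes of haemoglobin, immunoglobulin, ribosomal protein and mitochondrial origin left out of the total, 1 member was higher in the chondrocyte-like cluster for UAC + miR-330 against UAC, since Timp3 at log2 0.58 fell just short. With no minimum of UMIs, the neutrophil-like clusters gave 2 higher and 1 lower for UAC against sham and 2 lower for UAC + miR-330 against UAC, all on members with few UMIs there. Reading ratios relative to the median of all genes, and adding every cluster with at least 3 enriched neutrophil markers, were chosen after seeing the data.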
